A study of Homo sapiens with 12 samples.

Results

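The mRNAs of 10 genes of TGF-beta, activin and GDF15 signaling were followed through cellular senescence and with siRNAs directed at BDNF or its receptor TrkB. The members were chosen as a list of secreted ligands (TGFB1, TGFB2, TGFB3, INHBA, INHBB and GDF15), a secreted antagonist (FST) and receptors (TGFBR1, TGFBR2 and TGFBR3), and were found by matching the Ensembl identifiers of the count tables to gene symbols. All 10 were present among the 57773 genes listed, and all 10 were among the 21518 genes that passed the filter on low counts. The 12 libraries, in 4 groups of 3, held polyadenylated RNA of WI-38, a diploid fibroblast line of human lung. The first group was proliferating cells transfected with a non-targeting siRNA pool (siCtrl) and grown for 8 days with the vehicle DMSO. The other 3 groups were made senescent by 8 days of culture with etoposide, a drug that damages DNA by trapping topoisomerase, at 50 µM, and carried siCtrl, an siRNA pool directed at NTRK2 (siNTRK2), the gene that encodes TrkB, or an siRNA pool directed at BDNF (siBDNF). Every siRNA was used at 25 nM. No proliferating cells with siNTRK2 or siBDNF were analysed here, so the silencing effects are those in senescent cells of this line. The labels give the libraries of a group as separate samples without naming their cultures. The study describes its experiments in general as repeated independently, and if that does not hold for these libraries, p-values measure a spread that is technical.

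TGF-beta ligands are secreted in a latent complex, are released by proteases and integrins, and assemble the type II receptor TGFBR2 with the type I receptor TGFBR1, which phosphorylates SMAD2 and SMAD3. The SMADs then enter the nucleus with SMAD4 and turn on genes of the extracellular matrix and cell cycle inhibitors, together with their own inhibitor SMAD7. Activins, built from the INHBA and INHBB subunits, use a related receptor pair and are trapped by follistatin (FST), while GDF15 is a stress-induced cytokine that acts through the receptor GFRAL and its partner RET, mainly in the hindbrain. In senescent cells these ligands are known as members of the secretory program (SASP), and TGF-beta is known to drive matrix production in fibroblasts.

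The sequences before the transcription start are shown for GDF15, TGFB2 and INHBA, the ligands for which the effects of siNTRK2 and siBDNF differed in the direct test given further on. They are RefSeq windows of 300 bases on the build GRCh38.p14, from 250 bases before the start to 50 after it, and lie at chr19:18385908-18386207 on the + strand for GDF15, at chr1:218345086-218345385 on the + strand for TGFB2 and at chr7:41703041-41703340 on the - strand for INHBA. Capitals mark TATAAA, the letters of a TATA box.
GDF15: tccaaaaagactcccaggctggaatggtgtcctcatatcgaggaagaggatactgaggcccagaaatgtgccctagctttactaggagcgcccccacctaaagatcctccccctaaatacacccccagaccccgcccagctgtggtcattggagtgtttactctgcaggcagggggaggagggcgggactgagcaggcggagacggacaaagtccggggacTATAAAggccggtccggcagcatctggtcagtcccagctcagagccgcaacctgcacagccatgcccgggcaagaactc
TGFB2: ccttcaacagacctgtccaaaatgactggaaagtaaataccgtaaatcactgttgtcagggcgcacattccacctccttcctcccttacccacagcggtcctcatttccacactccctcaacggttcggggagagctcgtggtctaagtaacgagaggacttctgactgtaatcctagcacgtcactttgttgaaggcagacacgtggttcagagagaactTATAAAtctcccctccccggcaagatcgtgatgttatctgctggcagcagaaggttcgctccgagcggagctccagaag
INHBA: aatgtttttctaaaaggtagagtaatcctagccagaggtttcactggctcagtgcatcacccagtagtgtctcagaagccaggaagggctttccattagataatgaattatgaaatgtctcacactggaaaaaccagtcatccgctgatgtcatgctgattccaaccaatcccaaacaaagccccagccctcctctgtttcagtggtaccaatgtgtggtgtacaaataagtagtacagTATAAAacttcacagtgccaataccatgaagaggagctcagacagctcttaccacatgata
TATAAA lay at positions -29 to -24 from the start in both GDF15 and TGFB2, and at -11 to -6 in INHBA. The table had windows for all 10 genes, 19 in total, and TATAAA was found on either strand in a window of 4 genes, the fourth being TGFB3. Among all 35116 windows of this length 11.5% held it. Other letters searched on both strands were the AP-1 site TGANTCA (7.71% of all windows), the cyclic AMP response element TGACGTCA (1.85%), the amino acid response element TGATGNAAN (3.61%), the p53 half-site (6.63%), the SMAD palindrome GTCTAGAC (0.202%), the CAGA box AGCCAGACA (0.288%) and the GC box GGGCGG (45%). Of these only the GC box occurred in the windows shown, 2 times in GDF15 and without overlap with TATAAA. A match describes the letters of a window and does not show that a factor binds there.

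Library totals ran from 31567912 to 72328151 counts, and 3 counts, taken as the limit of detection, corresponded to 0.0427 to 0.0916 CPM (counts scaled to a common library size with TMM factors), covering counting error only. Genes with a count numbered 24315 to 25396 in proliferating and 26706 to 32183 in senescent libraries. The smallest library, siBDNF replicate 1, had 29427. The part of this in the senescence rises from few counts below (INHBB, RET, BMP7, LDLRAD4 and ITGB6) was not tested. Each of these genes passed the filter on low counts only through senescent libraries, so its call in senescence is not independent of the filter. The targeted genes were examined first. NTRK2 mRNA had 7, 15 and 10 counts in siCtrl-transfected senescent cells and 0 in each siNTRK2 library, at least 3.37-fold lower when the floor of 3 counts is taken per library. It had 11, 1 and 1 counts in proliferating cells and 10, 23 and 29 with siBDNF, so NTRK2 mRNA was low in all 4 groups, at 29 counts or fewer. BDNF mRNA fell from 162 ± 6.3 CPM (SD, n = 3) in siCtrl-transfected senescent cells to 47.1 ± 2.4 with siBDNF (log2 fold change -1.79), and was 205 ± 1.2 with siNTRK2 (0.33, edgeR adjusted p = 8.35e-06). How featureCounts treated strand is not given in the sources used here, so reads in the 988 exonic bases, of 7740 in BDNF, that BDNF-AS shares are uncertain. BDNF-AS, with a mean of 2099 counts, had log2 fold changes of -1.865 with siBDNF and 0.29 with siNTRK2, close to those of BDNF. Whether reads were counted for both genes was not tested. Proliferation genes marked the arrest: from proliferating to senescent cells with siCtrl, MKI67 (log2 fold change -3.68) and LMNB1 (-4.202) mRNAs fell, CDKN1A mRNA, which encodes p21, rose (1.62), and IL6 mRNA, usually a SASP component, was lower (-0.25). All 10 fibroblast markers were detected, with a summed level of 32257 to 34172 CPM in proliferating cells, 23264 to 25071 in siCtrl-transfected senescent cells, 27309 to 30215 with siNTRK2 and 24063 to 24632 with siBDNF. Of these markers 1 rose and 8 fell in senescence, 6 rose and 1 fell with siNTRK2, and 2 rose and 6 fell with siBDNF, among them DCN (-0.64), THY1 (-0.54) and VIM (-0.29), although the sum was close to that with siCtrl. Of all genes, 58.1%, 21.1% and 20.5% were called in the same comparisons. The summed level of immune markers was 50.0 to 57.1, 108 to 115, 77.2 to 80.9 and 181 to 184 CPM in the same order, most of it CD68, a lysosomal gene that fibroblasts also express, and PTPRC, which defines leukocytes, had 0 counts in each proliferating library and 30 to 71 in each senescent one. Epithelial markers summed to 67.5 to 72.1, 71.6 to 84.8, 68.9 to 73.4 and 73.2 to 76.8 CPM, with 3 of 5 tested higher in senescence, among them CLDN4 (2.01) and CDH1 (3.54, from 1 to 3 counts in proliferating cells), and KRT5 and KRT14 at 7 counts or fewer in every library. Endothelial markers summed to 0.812 to 2.11, 2.84 to 2.89, 1.92 to 2.70 and 2.95 to 4.03 CPM, with 3 of 4 tested higher and 1 lower in senescence, and ERG had 0 counts in each proliferating library and 11 to 24 with siCtrl in senescence. The part of these marker levels in the results below was not tested. In bulk RNA, fewer cells of a kind and less RNA per cell cannot be told apart.

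Senescence raised the mRNAs of GDF15, TGFBR2 and INHBB and lowered those of INHBA, TGFBR3, TGFBR1, FST and TGFB2. TGFB1 and TGFB3 did not pass the test. Thus 8 of 10 members were called at an adjusted p under 0.05, 3 higher and 5 lower, on a background in which 58.1% of all genes tested were called, 29.8% higher and 28.3% lower. With the study's added threshold of an absolute log2 fold change over 1, the members called were GDF15 and INHBB, 2 of 10, and 16.7% of all genes. INHBB passed the filter on low counts only through senescent libraries, so its call is not read as support for a rise. The median absolute log2 fold change was 0.55 over the members and 0.39 over all genes tested. As the members were chosen with earlier results of these data known, their shares here and below are not read as an enrichment.

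With siNTRK2 in senescent cells, GDF15, TGFB3, TGFBR3 and TGFB1 mRNAs were lower and TGFB2 mRNA was higher than with siCtrl. These were 5 of 10 members, 1 higher and 4 lower, when 21.1% of all genes were called, 11.1% higher and 10.0% lower. With the added fold threshold 0 members and 0.957% of all genes were called. The median absolute log2 fold change was 0.38 over the members and 0.18 over all genes.

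With siBDNF in senescent cells, INHBA, TGFBR1 and TGFBR2 mRNAs were higher than with siCtrl, and none was lower at the threshold. These were 3 of 10 members, with 20.5% of all genes called, 10.3% higher and 10.2% lower, a member share close to the background on so few genes. None passed with the fold threshold, which 0.609% of all genes passed. The median absolute log2 fold change was 0.16 over the members and 0.17 over all genes.

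Both silencing effects were measured against the same siCtrl-transfected senescent libraries, so whether they differed was tested directly between siNTRK2 and siBDNF. TGFB2 was higher with siNTRK2, while GDF15, TGFBR3, INHBA, TGFBR1 and TGFBR2 were higher with siBDNF. This made 6 of 10 members, 1 higher and 5 lower with siNTRK2, against 16.7% of all genes called, 8.84% higher and 7.86% lower. With the fold threshold there were 0 members and 1.16% of all genes.

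**Figure D1:**
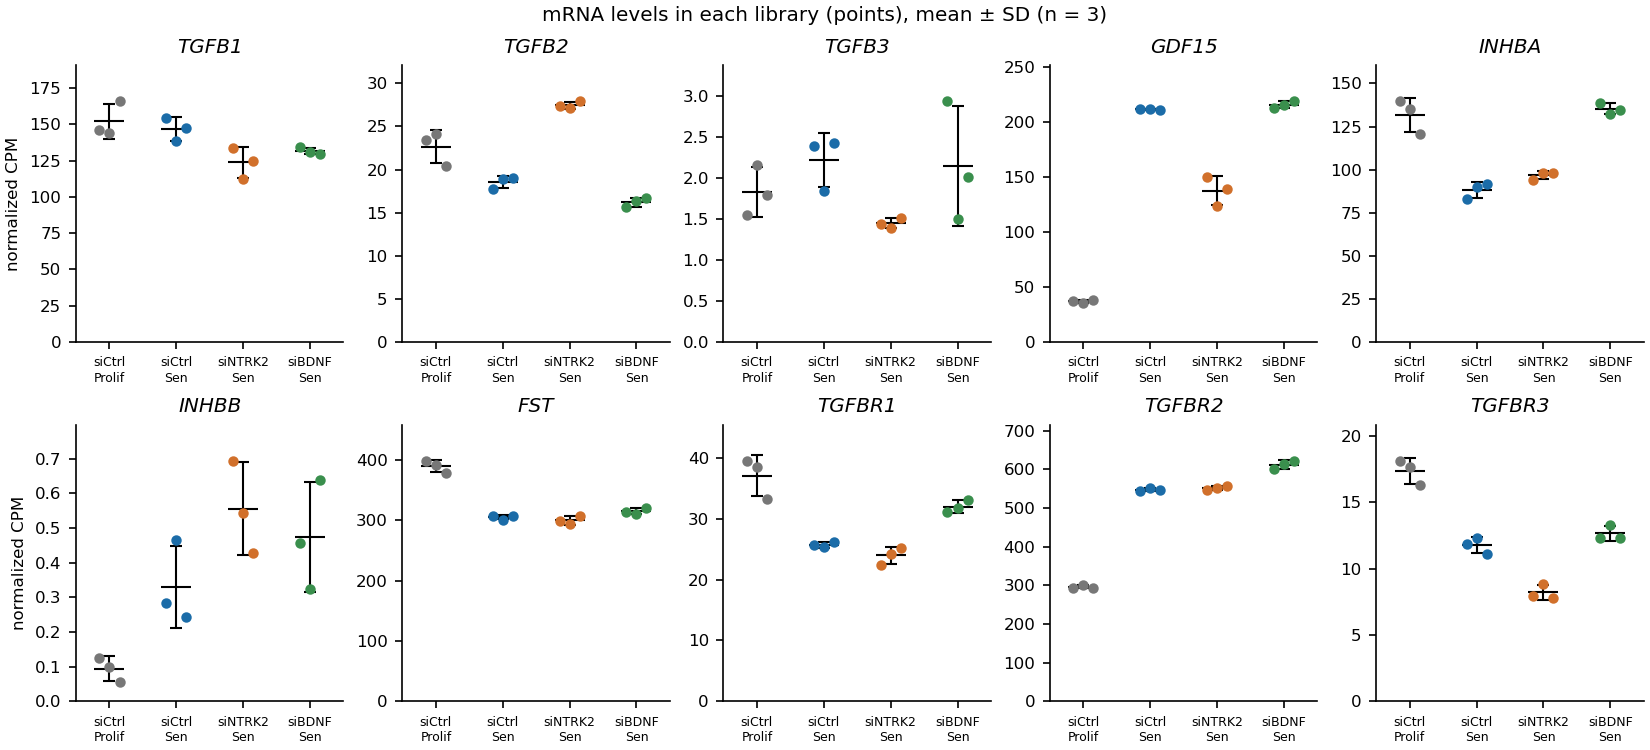
Normalized CPM (vertical axes, each from 0) of the 10 mRNAs in the 12 libraries, by group, with points for libraries and bars for the mean ± SD (n = 3). GDF15 was at 35.5 to 38.3 CPM in proliferating cells and at 210 to 212 CPM in siCtrl-transfected senescent cells, and TGFB2 was highest with siNTRK2.

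**Figure D2:**
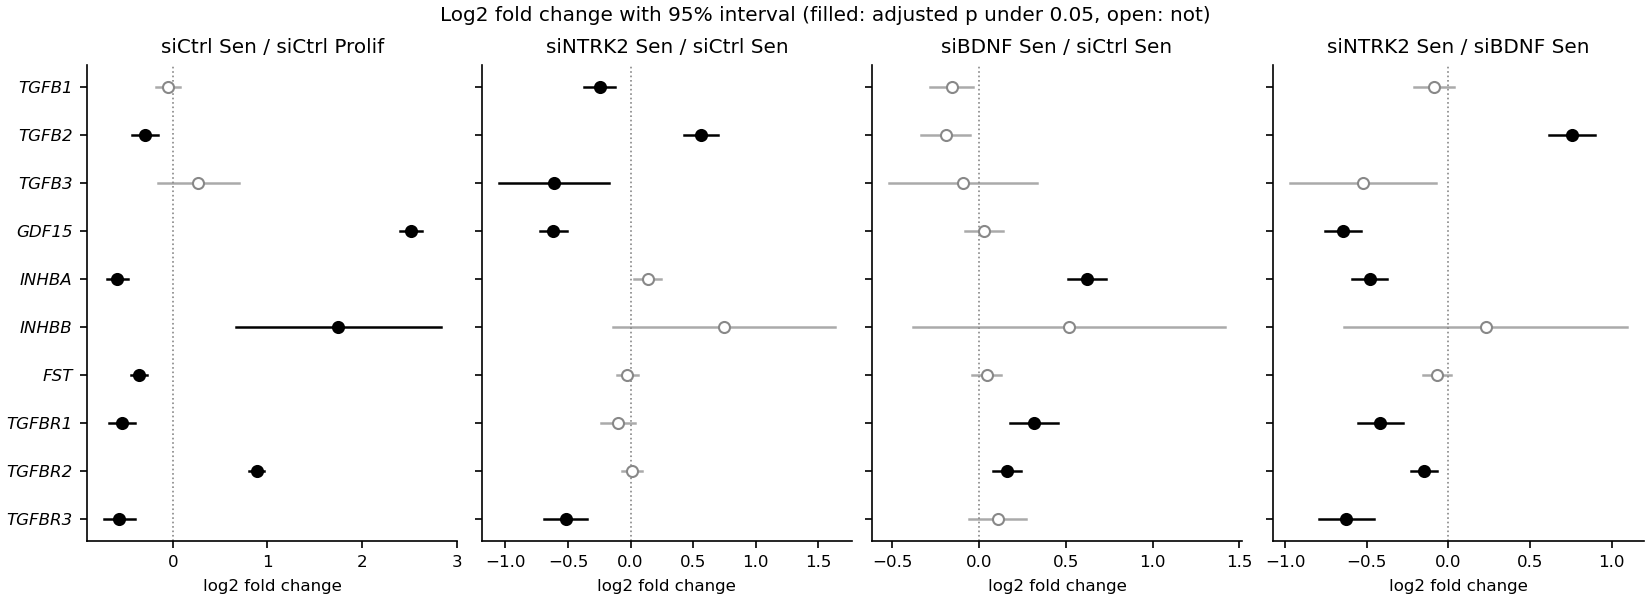
Log2 fold change (horizontal axes, which differ in range) of each mRNA with its 95% interval in the 4 comparisons; filled points had an edgeR adjusted p under 0.05 and open points did not. The widest intervals belonged to INHBB and TGFB3, the members with the lowest counts.

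GDF15 (ENSG00000130513; hg19 chr19:18485541-18499986, + strand), the stress cytokine, showed the largest change of the 10 members in senescence. Its mRNA was at 36.96, 35.5 and 38.3 CPM in proliferating cells and at 211.7, 211.8 and 210.5 CPM in siCtrl-transfected senescent cells. The groups were far apart, with a spread of 0.726 CPM (SD) in the senescent group, and the rise was 5.73-fold (log2 fold change 2.52, SE 0.057, edgeR adjusted p = 1.18e-21). Of all genes tested, 6.07% changed by more on the log2 scale. With siNTRK2, GDF15 mRNA was at 149.55, 124 and 139 CPM, and with siBDNF at 213, 215 and 219 CPM. Every siNTRK2 library lay below every siCtrl-transfected senescent library and above every proliferating one. GDF15 mRNA was thus lower by 0.62 on the log2 scale with siNTRK2 (SE 0.053, adjusted p = 4.79e-09), at 0.651 of the siCtrl level. With siBDNF the change was 0.03 (95% interval -0.08 to 0.14, adjusted p = 0.783), and the direct difference between the siRNAs was -0.65 (SE 0.053, adjusted p = 1.97e-09).

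The fall of GDF15 with siNTRK2 came with other differences in the same libraries. CDKN1A mRNA, which like GDF15 is a known p53 target, was at 2961, 2774 and 2896 CPM with siCtrl and at 2087, 1955 and 2055 CPM with siNTRK2 (log2 fold change -0.50, adjusted p = 2.80e-09). MKI67 mRNA, a proliferation marker, was at 1.64, 1.38 and 0.814 CPM with siCtrl and at 4.35, 3.85 and 4.36 CPM with siNTRK2 (1.72, adjusted p = 4.33e-08), against 15.8, 16.9 and 16.4 CPM in proliferating cells. TOP2A (1.11), LMNB1 (0.62) and CCNA2 (0.55) also rose with siNTRK2. CDKN2A, which encodes the arrest marker p16, rose too (0.21, adjusted p = 0.0251, groups overlapping), and IL6 fell (-0.29, adjusted p = 0.0402). Thus 5 of the 7 genes used to check arrest and SASP were higher and 2 lower, 100% called against 21.1% of all genes. Among the higher ones, MKI67, TOP2A, LMNB1 and CCNA2 had fallen in senescence, so the tally does not mean more arrest. With siBDNF, MKI67 rose (0.91), while CDKN1A (-0.04), TOP2A (0.12), LMNB1 (-0.18), CCNA2 (-0.23), CDKN2A (0.14) and IL6 (0.01) did not pass the test. The share called was 14.3% against 20.5% of all genes. The part of these differences in the GDF15 values was not tested. The GDF15 receptor was scarcely seen: GFRAL had 0 counts in each proliferating library and at most 7 in any library. RET, its signaling partner, had 4, 3 and 4 counts in proliferating cells and 57, 62 and 64 in siCtrl-transfected senescent cells (log2 fold change 3.91, adjusted p = 8.85e-08), and 3 counts are the detection limit. RET passed the filter on low counts only through senescent libraries.

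TGFB1 (ENSG00000105329; hg19 chr19:41807492-41859827, - strand), the main TGF-beta ligand of fibroblasts, was at 146, 144 and 166 CPM in proliferating cells and at 155, 138 and 147 CPM in siCtrl-transfected senescent cells. The groups overlapped, and the difference was -0.05 on the log2 scale (95% interval -0.17 to 0.07, adjusted p = 0.4998). With siNTRK2 it was at 134, 113 and 125 CPM, all below the siCtrl range, a fall of 0.25 (SE 0.060, adjusted p = 0.00401). With siBDNF it was at 134, 131 and 129.7 CPM, also below the siCtrl range, but the difference of -0.16 did not pass (SE 0.060, adjusted p = 0.0629), and the direct difference between the siRNAs was -0.09 (adjusted p = 0.356). TGFB1 exons overlap those of HNRNPUL1 on the other strand by 215 bases. HNRNPUL1 had a mean of 10541 counts, against 4398 to 10109 counts of TGFB1. It fell in senescence (log2 fold change -0.595, edgeR adjusted p = 8.23e-12). Reads in the shared bases are therefore uncertain, and their part in the TGFB1 values was not tested.

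TGFB2 (ENSG00000092969; hg19 chr1:218518678-218617961, + strand), a second TGF-beta ligand, moved the other way from TGFB1 with siNTRK2. It was at 23.4, 24.1 and 20.5 CPM in proliferating cells, at 17.8, 18.95 and 19.025 CPM in siCtrl-transfected senescent cells, at 27.4, 27.1 and 27.9 CPM with siNTRK2 and at 15.7, 16.4 and 16.7 CPM with siBDNF. None of these 4 ranges overlapped, and the siNTRK2 libraries were above the proliferating ones. In senescence TGFB2 mRNA fell by 0.29 (SE 0.068, adjusted p = 0.000675), and with siNTRK2 it rose by 0.56 (SE 0.067, adjusted p = 1.14e-06). With siBDNF the change was -0.19, just outside the threshold (SE 0.069, adjusted p = 0.05003), and the direct difference between the siRNAs was 0.76 (SE 0.068, adjusted p = 1.03e-08). TGFB2-AS1, an antisense RNA that shares 701 exonic bases with TGFB2, had a mean of 59.7 counts against 513 to 1694 counts of TGFB2, and was also higher with siNTRK2 (0.73, adjusted p = 0.0433), so reads in the shared bases are uncertain.

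TGFB3 (ENSG00000119699; hg19 chr14:76424440-76449354, - strand), the third ligand, was low, at 66 to 151 counts per library. It was at 1.54, 2.15 and 1.79 CPM in proliferating cells and at 2.39, 1.84 and 2.42 CPM in siCtrl-transfected senescent cells, ranges that overlapped (log2 fold change 0.27, adjusted p = 0.279). With siNTRK2 it was at 1.44, 1.39 and 1.51 CPM, below every siCtrl library, and the fall of 0.62 passed the threshold narrowly (SE 0.213, adjusted p = 0.0409). TGFB3-AS1 shares 163 exonic bases with it on the other strand. That call was lost without replicate 1 or 3 of the siCtrl-transfected senescent cells or without any of the 3 siNTRK2 libraries (adjusted p from 0.0719 to 0.147). It was also lost with library totals in place of TMM (0.0506) and with DESeq2 (0.0517). With siBDNF the values were 2.93, 1.49 and 2.01 CPM, overlapping those of siCtrl (-0.09, adjusted p = 0.829), and the sign turned without replicate 2 (0.13).

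Within a library, the make-up of the 3 TGF-beta ligand mRNAs can be compared per length of their exons. TGFB1 made up 91.9% ± 1.2 (SD, n = 3) of them in proliferating cells, 92.8% ± 0.48 in siCtrl-transfected senescent cells, 88.7% ± 0.82 with siNTRK2 and 92.9% ± 0.19 with siBDNF. The TGFB2 share was 7.44% ± 1.1, 6.35% ± 0.52, 10.7% ± 0.78 and 6.18% ± 0.30 in the same order, and its lowest siNTRK2 library, 9.86%, lay above the highest of the other groups, 8.22%. TGFB1 was thus the predominant isoform in all 4 groups, and TGFB2 gained on it with siNTRK2. The lengths are those of all annotated exons of a gene joined together, not of the isoforms used in these cells.

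INHBA (ENSG00000122641; hg19 chr7:41706766-41745432, - strand) encodes the subunit of activin A. Its mRNA was at 139.6, 135 and 121 CPM in proliferating cells and at 82.8, 89.8 and 91.4 CPM in siCtrl-transfected senescent cells, with no overlap, a fall of 0.58 (SE 0.053, edgeR adjusted p = 7.05e-10). With siBDNF it was at 139, 133 and 134 CPM. These values lay within the range of the proliferating libraries, and the rise was 1.54-fold over siCtrl (log2 fold change 0.62, SE 0.053, adjusted p = 6.54e-09), with 8.65% of all genes changed by more. With siNTRK2 it was at 94.2, 97.9 and 98.2 CPM, above the siCtrl range, but the difference of 0.14 did not pass (SE 0.053, adjusted p = 0.0672). The direct difference between the siRNAs was -0.48 (SE 0.053, adjusted p = 2.46e-07). INHBA-AS1, which shares 248 exonic bases with INHBA, had a mean of 23.1 counts, and INHBA had at least 4464.

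INHBB (ENSG00000163083; hg19 chr2:121103712-121109379, + strand), the subunit of activin B, was near the detection limit. It had 7, 7 and 2 counts in proliferating cells, 16, 27 and 14 in siCtrl-transfected senescent cells, 43, 27 and 23 with siNTRK2 and 15, 22 and 44 with siBDNF. The senescent libraries with siCtrl lay above the proliferating ones, also in CPM (0.242 to 0.465 against 0.0541 to 0.126), and the log2 fold change was 1.75 with a wide error (SE 0.524, adjusted p = 0.00595). INHBB passed the filter on low counts only through senescent libraries, so this p-value is not independent support for the rise. More genes had a count in senescent libraries, as given above, and the part of that in the INHBB rise was not tested. The 3 senescent groups overlapped, with changes of 0.75 for siNTRK2 (adjusted p = 0.241) and 0.52 for siBDNF (adjusted p = 0.474). Differences among them were not detectable at this depth.

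FST (ENSG00000134363; hg19 chr5:52776456-52782964, + strand), which encodes the activin trap follistatin, was at 399, 392 and 379 CPM in proliferating cells and at 307, 301 and 308 CPM in siCtrl-transfected senescent cells. The ranges were apart, a fall of 0.35 (SE 0.041, adjusted p = 4.85e-08). With siNTRK2 the values were 299, 294 and 308 CPM and the change was -0.03 (95% interval -0.11 to 0.06), and with siBDNF they were 313, 311 and 321 CPM and the change was 0.04 (95% interval -0.04 to 0.13). Neither passed the test. The ratio of FST to INHBA mRNA per length was 8.93 ± 0.46 (SD, n = 3) in proliferating cells, 10.5 ± 0.61 in siCtrl-transfected senescent cells, 9.33 ± 0.27 with siNTRK2 and 7.01 ± 0.21 with siBDNF. All siBDNF libraries (6.78 to 7.19) lay below all others (8.60 to 11.2), so that with siBDNF activin A subunit mRNA rose relative to its antagonist.

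TGFBR2 (ENSG00000163513; hg19 chr3:30648093-30735634, + strand), the ligand-binding type II receptor, was at 294, 301 and 293 CPM in proliferating cells and at 544, 551 and 547 CPM in siCtrl-transfected senescent cells. The rise was 1.85-fold with no overlap (log2 fold change 0.89, SE 0.039, edgeR adjusted p = 5.90e-16). With siNTRK2 the values, 546, 552 and 557 CPM, overlapped those with siCtrl (0.01, 95% interval -0.07 to 0.09). With siBDNF they were 599.6, 614 and 622 CPM, above every other library, a rise of 0.16 (SE 0.039, adjusted p = 0.00369). The direct difference between the siRNAs was -0.15 (SE 0.039, adjusted p = 0.00768).

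TGFBR1 (ENSG00000106799; hg19 chr9:101866320-101916474, + strand), the signaling type I receptor, went the other way from TGFBR2 in senescence. It was at 39.6, 38.5 and 33.2 CPM in proliferating cells and at 25.7, 25.3 and 26.2 CPM in siCtrl-transfected senescent cells, a fall of 0.53 without overlap (SE 0.066, adjusted p = 1.65e-07). With siBDNF it was at 31.0, 31.8 and 33.1 CPM, between both siCtrl groups and overlapping neither, a rise of 0.32 over siCtrl (SE 0.066, adjusted p = 0.00111). With siNTRK2 it was at 22.5, 24.2 and 25.3 CPM and did not pass (-0.10, SE 0.067, adjusted p = 0.317), and the direct difference between the siRNAs was -0.42 (SE 0.067, adjusted p = 5.93e-05). The ratio of TGFBR2 to TGFBR1 mRNA per length was 9.36 ± 0.84 (SD, n = 3) in proliferating cells, 24.9 ± 0.52 in siCtrl-transfected senescent cells, 26.9 ± 1.3 with siNTRK2 and 22.3 ± 0.36 with siBDNF.

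TGFBR3 (ENSG00000069702; hg19 chr1:92145900-92371892, - strand) encodes betaglycan, a co-receptor that presents TGF-beta ligands, TGFB2 above all, to TGFBR2. It was at 18.2, 17.7 and 16.3 CPM in proliferating cells, at 11.9, 12.3 and 11.1 CPM in siCtrl-transfected senescent cells, at 7.97, 8.87 and 7.82 CPM with siNTRK2 and at 12.3, 13.3 and 12.3 CPM with siBDNF. It fell in senescence (-0.56, SE 0.079, adjusted p = 1.05e-06) and was lower again with siNTRK2 (-0.52, SE 0.082, adjusted p = 5.23e-05). With siBDNF the difference of 0.11 did not pass (SE 0.080, adjusted p = 0.405), and the direct difference between the siRNAs was -0.63 (SE 0.082, adjusted p = 4.19e-06). With siNTRK2, TGFB2 and its co-receptor thus moved in opposite directions in the same libraries.

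**Figure D3:**
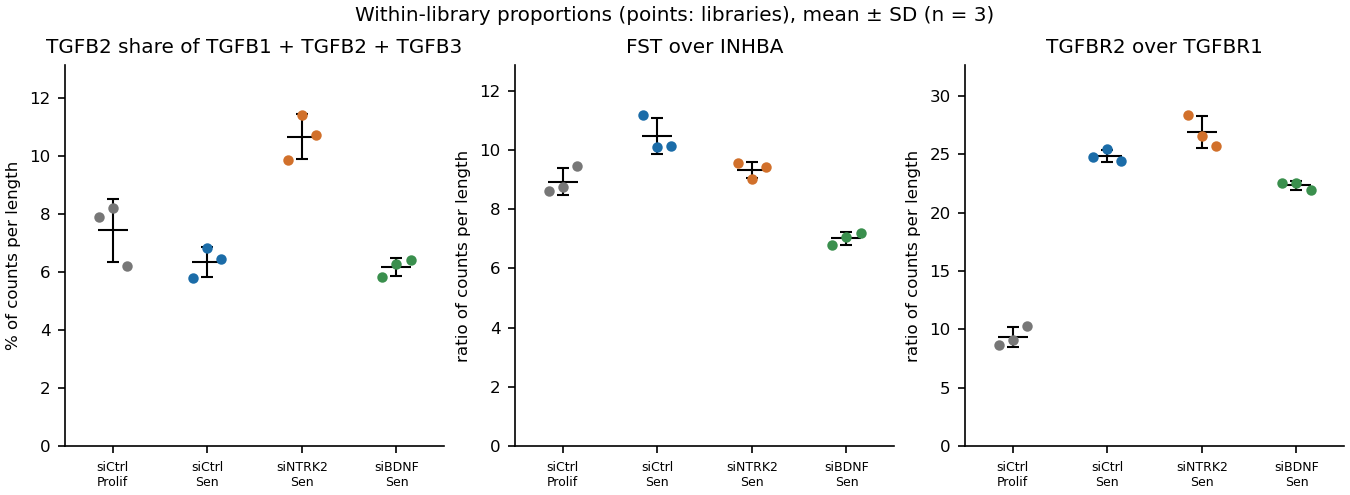
Proportions within each library (points), with mean ± SD (n = 3) by group: the TGFB2 share of TGF-beta ligand counts per length (percent), and the ratios per length of FST to INHBA and of TGFBR2 to TGFBR1. TGFB2 was at 9.86% to 11.4% with siNTRK2, FST over INHBA was lowest with siBDNF, and TGFBR2 over TGFBR1 was lowest in proliferating cells.

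Per length, the levels in siCtrl-transfected senescent cells ordered the members as FST (111 ± 1.4 CPM per kilobase, SD, n = 3), GDF15 (101 ± 0.35), TGFBR2 (79.9 ± 0.51), TGFB1 (45.0 ± 2.5), INHBA (10.6 ± 0.55), TGFBR1 (3.22 ± 0.054), TGFB2 (3.07 ± 0.12), TGFBR3 (1.37 ± 0.072), TGFB3 (0.425 ± 0.062) and INHBB (0.103 ± 0.037). No neighbors overlapped, and the closest were TGFBR1 (3.17 to 3.27) and TGFB2 (2.94 to 3.15), whose means were 0.145 apart. In proliferating cells FST was first at 142 ± 3.7 and GDF15 was at 17.7 ± 0.66, below TGFB1 (46.6 ± 3.7) and TGFBR2 (43.2 ± 0.61), whose means were 3.37 apart, less than the SD of TGFB1, although their ranges (44.1 to 50.9 and 42.8 to 43.9) did not overlap.

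The other genes of the pathway and its targets were taken from 7 lists by role, 103 genes of which 93 were tested. Of these, 37 rose and 46 fell in senescence, 89.2% of the genes tested against 58.1% of all genes. With siNTRK2, 31 rose and 10 fell (44.1% against 21.1% of all genes), and with siBDNF 27 rose and 14 fell (44.1% against 20.5%). Between the siRNAs 26 were higher and 16 lower with siNTRK2 (45.2% against 16.7%). The shares differed between the lists, and nothing is read from them as particular to a list. The lists were chosen with earlier results of these data known. They also hold genes with very high counts, such as COL1A1, whose small changes are called more easily. The shares are therefore not read as an enrichment over all genes.

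Among 25 known response genes of TGF-beta in fibroblasts, 10 rose and 14 fell in senescence, 96% of the list against 58.1% of all genes. Their median log2 fold change was -0.29 against 0.02 over all genes tested. The largest falls were in matrix genes, ELN (elastin, -1.33), COL3A1 (-1.13) and COL4A1 (-0.93), and the largest rises in CDKN2B (0.78), which encodes the cell cycle inhibitor p15, CNN1 (0.71) and EDN1 (0.62). With siNTRK2, 16 rose and 2 fell (median 0.27, all genes 0.00), 72% of the list against 21.1% of all genes. COL5A1 (0.83), ELN (0.82) and COL4A1 (0.82) rose most, and the contractile genes ACTA2 (-0.31) and CNN1 (-0.27) fell. ELN mRNA was at 27.0, 25.9 and 25.3 CPM with siCtrl and at 47.6, 42.1 and 48.7 CPM with siNTRK2, with no overlap. With siBDNF, 10 rose and 7 fell (median 0.09), 68% of the list against 20.5% of all genes. ELN was at 17.8, 18.6 and 18.05 CPM with siBDNF, a fall of 0.52. CDKN2B (0.89), VCAN (0.66) and ADAM12 (0.58) rose with siBDNF, while ACTA2 (-0.64) and TAGLN (-0.51) fell. Between the siRNAs, 14 of the 25 were higher with siNTRK2 and 2 lower, 64% of the list against 16.7% of all genes. ELN (1.35), COL4A1 (0.66) and COL3A1 (0.50) led the higher ones, and CDKN2B (-0.62) and SPHK1 (-0.43) were lower. The response list shares 3 collagens, COL1A1, COL1A2 and COL3A1, with the fibroblast markers, whose summed level moved as given above. The part of that difference in these counts was not tested.

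Of 19 genes that store or activate latent TGF-beta, 7 rose and 9 fell in senescence, 11 rose and 0 fell with siNTRK2, and 8 rose and 2 fell with siBDNF (medians -0.08, 0.27 and 0.27). The shares called were 84.2%, 57.9% and 52.6% of the list, against 58.1%, 21.1% and 20.5% of all genes. The fall in senescence was led by the integrin subunit ITGB8 (-1.71), the latent TGF-beta binding protein LTBP4 (-1.19) and thrombospondin THBS1 (-1.12). The largest rises were in ITGB6 (2.27), LTBP3 (0.79) and ITGB5 (0.58). ITGB6 was near the detection limit, with 3, 8 and 3 counts in proliferating cells and 17, 28 and 27 in siCtrl-transfected senescent cells. With siNTRK2, LTBP2 (0.65), the microfibril gene FBN1 (0.53) and the integrin subunit ITGB3 (0.44) rose most. With siBDNF, the proteases MMP14 (0.52) and FURIN (0.37) and FBN1 (0.47) rose, and FBN2 (-0.30) and THBS1 (-0.21) fell. Between the siRNAs 8 were higher and 2 lower with siNTRK2 (52.6% against 16.7% of all genes), among them LTBP4 (0.53) and MMP14 (-0.29).

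Among the 8 SMADs and partners, 1 rose and 6 fell in senescence, led by SMAD1 (-1.03), SMAD4 (-0.61) and SMAD9 (-0.56), with ZFYVE9 higher (0.23). With siNTRK2, SMAD5 (-0.22) was the 1 call, 12.5% of the list and below the 21.1% of all genes called. With siBDNF, TRIM33 (0.31), SMAD3 (-0.31) and ZFYVE9 (-0.18) were called, 37.5% against 20.5% of all genes. SMAD3, which carries the TGF-beta signal, was higher with siNTRK2 than with siBDNF (0.24). Of 11 inhibitors inside the cell, 6 rose and 3 fell in senescence. PMEPA1 (0.75) and SMAD7 (0.56) rose, as did LDLRAD4 at low counts (3.4985), while TGIF2 (-0.93), TGIF1 (-0.40) and SKIL (-0.30) fell. With siBDNF, 5 rose and 0 fell, led by PMEPA1 (0.50), SKIL (0.41) and SMAD7 (0.33), or 45.5% against 20.5% of all genes. With siNTRK2, PMEPA1 (0.29) and SMURF2 (0.26) rose, 18.2% against 21.1% of all genes. In the direct test SMAD7 (-0.29) and SKIL (-0.30) were lower with siNTRK2 than with siBDNF. In senescence 87.5% of the SMAD list and 81.8% of the inhibitors were called, against 58.1% of all genes.

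Of 10 secreted antagonists tested, 4 rose and 4 fell in senescence. NBL1 (1.07), NOG (0.94) and FSTL3 (0.62), a relative of follistatin, rose, and GREM1 (-1.24), decorin (DCN, -0.73) and VASN (-0.48) fell. With siNTRK2, 1 rose and 4 fell, led by NBL1 (-0.44) and TWSG1 (-0.43), 50% of the list against 21.1% of all genes. With siBDNF, DCN (-0.64) and TWSG1 (-0.28) fell, 20% of the list, which is the share among all genes (20.5%). Of 9 other ligands tested, 5 rose and 3 fell in senescence, among them BMP6 (1.85) and BMP2 (1.41) higher and BMP4 (-1.06) lower. BMP7 had 0 counts in each proliferating library and 10, 5 and 5 in siCtrl-transfected senescent cells. With siBDNF, BMP6 (0.83) and BMP2 (0.70) rose and BMP4 (-0.43) fell, and with siNTRK2, GDF6 (-0.63), GDF5 (-0.39) and BMP4 (-0.34) fell, 33.3% of the list with either siRNA. Of 11 other receptors tested, 4 rose and 7 fell in senescence, among them ENG, an accessory TGF-beta receptor (0.50), and BMPR1B (-1.38). ACVR1 (0.16) was the 1 call with siNTRK2 and BMPR2 (0.23) the 1 call with siBDNF, 9.09% of the list in each case and below the shares of all genes (21.1% and 20.5%). In senescence 80% of the antagonists, 88.9% of the other ligands and 100% of the other receptors were called, against 58.1% of all genes.

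The 16 genes of the p53 and stress responses, programs that induce GDF15, did not move as one. In senescence 8 rose and 7 fell: CDKN1A (1.62), BTG2 (0.94) and ATF3 (0.82) rose, and ASNS (-1.95), TRIB3 (-1.13) and CHAC1 (-1.10), targets of the stress factor ATF4, fell. With siNTRK2, 2 rose and 10 fell (median -0.22), with CDKN1A (-0.50), ATF3 (-0.41) and TRIB3 (-0.31) lower and SESN1 (0.26) and ATF4 (0.25) higher. With siBDNF, 3 rose and 4 fell (median -0.05), with SESN1 (0.42) higher and ASNS (-0.41) lower. In the order given, 93.8%, 75% and 43.8% of the list were called, against 58.1%, 21.1% and 20.5% of all genes.

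**Figure D4:**
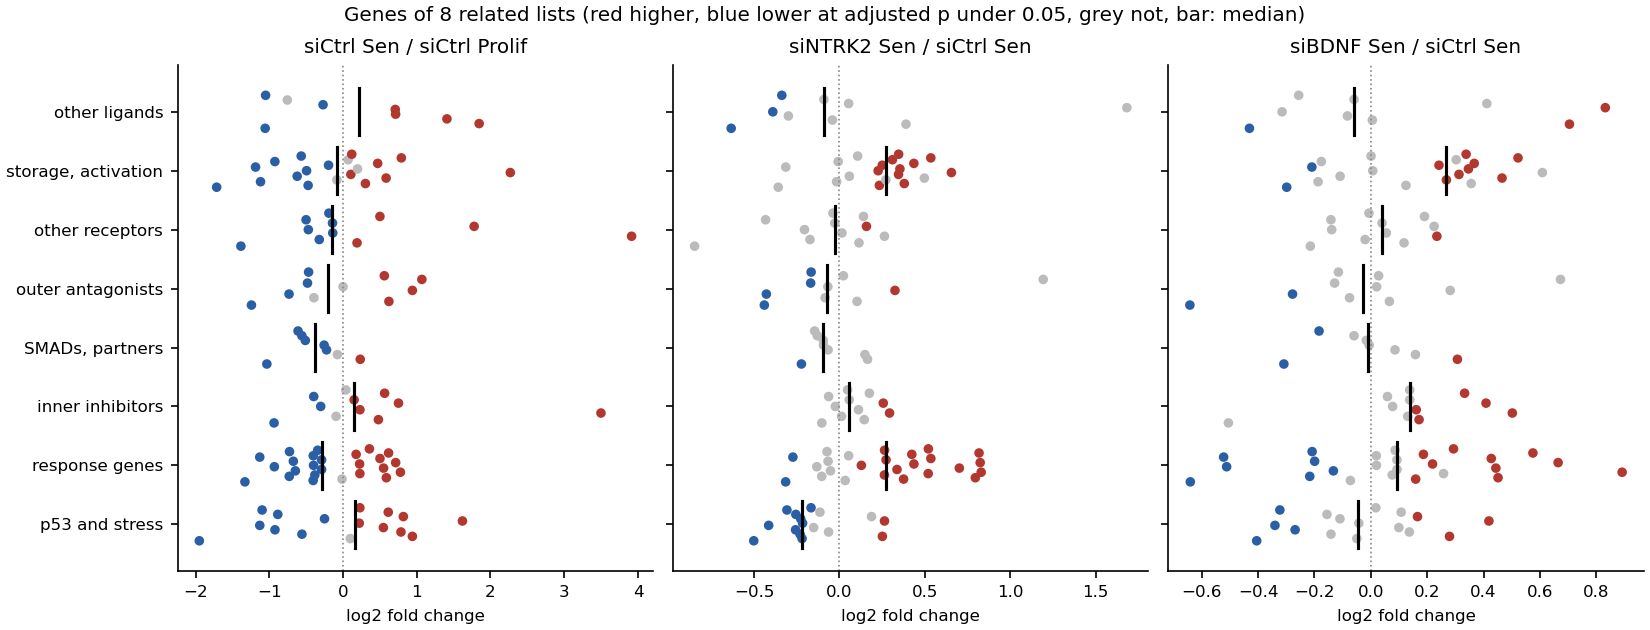
Log2 fold change (horizontal axes, which differ in range) of the tested genes of 8 lists in 3 comparisons, with a bar at each list's median; red and blue points were higher and lower at an edgeR adjusted p under 0.05. BMP7 is left out of the comparison with proliferating cells, where it had 0 counts. With siNTRK2, 16 of 25 response genes were higher and 10 of 16 p53 and stress genes lower. Of all genes, 11.1% were higher and 10.0% lower.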

How the data were processed

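Per the labels, stranded libraries were made from WI-38 RNA and sequenced. The authors trimmed adapters with Cutadapt, aligned reads to hg19 with STAR 2.4.0j and deposited raw counts per Ensembl gene from featureCounts 1.6.4, with 1 table per library and no normalization. The strand setting is not given in the sources used here, so overlapping antisense genes are uncertain. Identifiers were paired with symbols for 55538 of 57773 genes. Groups came from the sample titles and were compared in edgeR 4.0.16 (R 4.3.3) with TMM factors, filterByExpr and a quasi-likelihood fit of all 12 libraries with 1 term per group. P-values were adjusted by Benjamini-Hochberg over 21518 genes, intervals are 95%, and SE is the log2 fold change over the square root of F. The study used DESeq2, which was run as an alternative (1.42.0). In simulated counts for senescent against proliferating cells, with 200 of 21518 genes changed by 1 on the log2 scale, 176 (88%) were called, with 9 other calls. The changed genes were drawn only from those above a minimum mean CPM, which left out INHBB. They were balanced in direction and far fewer than the 58.1% called in the data, so these figures need not carry over. Replicate libraries differed by more than sampling noise (chi-square per gene 3.92 to 13.6). Exon lengths came from GENCODE annotation lifted to hg19, and promoter windows from RefSeq. Named genes are the members, the targeted genes and, per list and comparison, up to 3 higher and 3 lower with the largest called changes and no overlap between groups; GFRAL, the arrest markers, TGFB2-AS1 and other overlapping genes were named beside these. The members and lists were chosen with earlier results of these data known. TATAAA and the length and GC offset were added after the data were seen.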

Additional observations from a re-analysis of the deposited data

Results flagged for a closer look

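The effects of the 2 siRNAs on senescent cells differed, by the direct edgeR test between siNTRK2 and siBDNF, for 6 of the 10 mRNAs. Of all genes tested, 16.7% were called in that test. The effect of siNTRK2 minus that of siBDNF, on the log2 scale, was 0.76 for TGFB2, -0.48 for INHBA, -0.65 for GDF15, -0.42 for TGFBR1, -0.15 for TGFBR2 and -0.63 for TGFBR3. The edgeR adjusted p-values ran from 1.97e-09 (GDF15) to 0.00768 (TGFBR2). The siNTRK2 and siBDNF libraries did not overlap for these 6, nor for FST, which was not called. The share of all genes without overlap was not counted, so the lack of overlap is a description and adds no support to the calls.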

How the results depend on the processing

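The number of members called at an adjusted p under 0.05 (8, 5, 3 and 6 for senescence, siNTRK2, siBDNF and the difference between the siRNAs) became 2, 0, 0 and 0 when an absolute log2 fold change over 1 was also asked. For siBDNF it was 5 with the length and GC offset and 5 when the fit held only the 2 groups compared, TGFB1 and TGFB2 being the genes gained, and 3 to 5 when 1 library was left out (5 without replicate 3 of the proliferating cells or replicate 2 of siNTRK2). With the replicate block the counts were 8, 5, 4 and 6, TGFB1 with siBDNF being gained (-0.16, edgeR adjusted p = 0.0407). Same-numbered libraries did not deviate together over all genes tested (mean correlation 0.000686, from -0.037 to 0.0222). This gave no sign that the numbers pair the libraries, but it cannot exclude pairing. The study states that the groups of a cell culture experiment were kept together. Signs turned for TGFB1 in senescence without replicate 3 of the proliferating cells (0.0146, adjusted p = 0.850; leave-out range -0.102 to 0.0146), for TGFBR2 with siNTRK2 under the length and GC offset (-0.0568) and for TGFB3 with siBDNF without its replicate 2 (0.128; leave-out range -0.339 to 0.128), none of them called. Under the offset TGFB1 in senescence (-0.15) and TGFBR1 with siNTRK2 (-0.21) passed the threshold, and INHBA with siNTRK2 passed without a filter on low counts (0.15, adjusted p = 0.0353) and in 3 leave-out fits; the cause was not tested. TGFB3 without replicate 2 of siBDNF differed between the siRNAs (-0.73, adjusted p = 0.0281). Without division by length the TGFB2 share was 12.9%, 11.1%, 18.04% and 10.8%, in the order proliferating, siCtrl, siNTRK2 and siBDNF. Over all results, leaving out 1 library kept 463 on the same side, moved 10 past and 5 off the threshold and turned 2; the other alternatives kept 301, moved 12 and 2 and turned 1. INHBB could not be tested when at least 10 counts were asked in every library. The 2 members under 200 counts, TGFB3 and INHBB, had the widest errors.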
